A study of Mus musculus with 9 samples.

Results

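This section describes 62 genes for proteins of the cytosolic ribosome in hindlimb skeletal muscle of neonatal mice, out of 22180 genes measured with a single gene symbol. They were chosen by symbol alone: Rpl or Rps with a number and an optional final a, l or x, together with Rplp0, Rplp1, Rplp2 and Rpsa, leaving out Rpl3, Rpl3l, pseudogenes named with -ps and the Rps6k kinases. The set holds 38 genes named for the large subunit and 24 for the small one. Where a gene had several probe sets, the brightest on average across the 9 arrays stands for it. Muscle was taken on postnatal days 2, 7 and 14, called P2, P7 and P14 here. Each age has 3 biological replicates, measured on 1 array apiece. The strain is given as mixed, no genetic change or treatment is named, and the sources used here leave unstated how many animals went into a replicate. No age is a control, so each comparison is between ages, and a p-value weighs the difference against the spread among these 9 samples, some of which may be technical.

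The ribosome is built from ribosomal RNA and about the same set of proteins in every cell, and making it is a large cost for a growing cell. In mammals many messenger RNAs for these proteins begin with a C followed by a run of pyrimidines, a terminal oligopyrimidine tract, through which the growth kinase mTORC1 and the RNA-binding protein LARP1 set how well they are translated. In muscle, ribosome number has been linked to fibre growth, and the first weeks after birth are a time of fast growth. An array reads transcript levels, not ribosomes or translation.

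Most of the 62 genes did not pass the test at any step, and those that did passed it over the whole span from P2 to P14. Between these ages 10 genes fell and 1 rose (16.1% and 1.61%), where limma called 4.40% of all genes lower and 6.63% higher. The genes that fell were Rps4x, Rps12, Rpl41, Rpl9, Rpl8, Rpl7, Rplp1, Rpsa, Rps19 and Rps6, which were 1.44 to 2.36-fold lower at P14. Rpl34 rose 2.13-fold. The other 51 genes were not called, and none of the 62 was called from P2 to P7 or from P7 to P14, where 0.329% and 2.43% of all genes were.

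The brightness of an array probe set depends on its sequence as well as on the amount of RNA, so levels are compared between ages for 1 gene and never between genes. A gene was counted as above background when its mean at 1 age or more exceeded a log2 intensity of 3.43, the 95th percentile over 1432 smell, taste and vomeronasal receptor genes. Of the 62 genes 56 were above it, and Rpl10l, Rpl17, Rpl32l, Rplp2, Rps14 and Rps15 were not. Ribosomal protein genes have many processed pseudogenes with near-identical sequence, and a probe set can read their transcripts too, so each value is that of a probe set named for the gene. RefSeq itself lists Rpl6l as a pseudogene and Rps4l as a transcribed pseudogene. Another 19 symbols that meet the rule, among them Rpl10 and Rps2, were not analysed here, and 12 of these lie on probe sets named for several genes.

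The sequence around the start of transcription is shown for 6 of the called genes, since the start is where the pyrimidine tract lies, and for 4 genes with long tracts that were not called. Each line holds the 10 bases before the start and the first 20 bases of the transcript, 5′ to 3′, from RefSeq promoters of assembly GRCm38.p6, and capitals mark a C followed by at least 4 further C or T that begins within 5 bases of the start.
Rps6, chr4:86857348-86857377, minus strand: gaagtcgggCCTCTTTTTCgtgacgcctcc
Rpl34, chr3:130730318-130730347, minus strand: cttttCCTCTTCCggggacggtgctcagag
Rpl34, chr3:130730379-130730408, minus strand: tccctgacgtaCTTCCTgtccggcgccgtc
Rps4x, chrX:102189372-102189401, minus strand: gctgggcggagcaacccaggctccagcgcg
Rpl41, chr10:128549149-128549178, minus strand: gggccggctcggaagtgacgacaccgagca
Rps12, chr10:23787190-23787219, minus strand: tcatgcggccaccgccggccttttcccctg
Rpsa, chr9:120127756-120127785, plus strand: ttatttaaggacgtcatttccggccgcccg
Rpl15, chr14:18270967-18270996, minus strand: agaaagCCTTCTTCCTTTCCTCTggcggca
Rpl27a, chr7:109519185-109519214, plus strand: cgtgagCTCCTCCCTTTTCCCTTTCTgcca
Rpl35, chr2:39005112-39005141, minus strand: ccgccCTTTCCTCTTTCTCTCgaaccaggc
Rps10, chr17:27635225-27635254, minus strand: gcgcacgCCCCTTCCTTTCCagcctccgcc
Among these called genes Rps6 and both listed starts of Rpl34 hold such a run. The starts of Rps4x, Rpl41, Rps12 and Rpsa do not, at the position RefSeq gives. An annotated start can differ from the one used in muscle.

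RefSeq promoters of 300 bases were matched for 48 of the 62 genes, with 56 starts between them. The pyrimidine run was present on the gene's strand at 23 of the 56 starts (41.1%), against 18.3% of the 32851 promoters of all genes. The motif CGGAAG, with its reverse strand CTTCCG, a core that ETS family factors can bind, was found in 34 of the 56 (60.7%) against 16.9%. The E-box CACGTG, which Myc with Max can bind and which reads the same on both strands, stood in 6 (10.7%) against 7.15%, and TATAA at 40 to 21 bases before the start on the gene's strand in 3 (5.36%) against 3.31%. These letters describe the windows and show no binding. Of the 21 genes with a pyrimidine run at a listed start, Rps6 was called lower and Rpl34 higher from P2 to P14, and the median log2 change was -0.12. Of the 27 without one, 6 were called lower and none higher, with a median of -0.089. The 14 genes with no promoter in the table, among them Rpl7, Rpl8 and Rplp1, had 3 calls, all lower, and a median of -0.21. With CGGAAG, 4 of 32 genes were called lower and 1 higher, and without it 3 of 16 were called lower. Over the same span 16.1% of the 62 genes were called lower and 1.61% higher, against 4.40% and 6.63% of all genes. The difference between the promoter groups was not tested.

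Replicates correlated at 0.953 to 0.984 across genes, which are not independent replicates. The median SD of a ribosomal protein gene among 3 arrays, in log2 units, was highest at P2 (0.222), lower at P7 (0.165) and lowest at P14 (0.14). All 8 muscle markers (Acta1, Ckm, Tnnt3, Myh8, Myh4, Mylpf, Des and Ttn) were above background. So were all measured markers of fibroblasts (6), endothelial cells (6), macrophages (6) and dividing cells (7), so this alone does not mark the samples as muscle. The summed linear intensity of the muscle markers ranged over 12263 to 13674 on the P2 arrays, 16696 to 18492 on those of P7 and 19402 to 20172 on those of P14. The sum hides changes in both directions. From P2 to P14, 3 of the 8 were called higher and 1 lower, with log2 changes from -5.32 to 4.28. These are 37.5% and 12.5%, against 6.63% and 4.40% of all genes.

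The comparison of P7 with P2 asks which of these transcripts changed early. None of the 62 genes was called by limma at an adjusted p under 0.05, where 0.329% of all genes were, and 8 had an unadjusted p under 0.05 (12.9%, against 12.8% of all genes). Of these 7 were lower at P7 (11.3%, against 6.61%) and 1 higher (1.61%, against 6.22%). Of the 62, 41 had a negative change, and the median was -0.096, beside -0.0060 over all genes. The 3 arrays of P7 lay entirely below those of P2 for 11 genes and entirely above for 4, that is 17.7% and 6.45%, where 7.90% and 7.30% of all genes did so. Among genes above background the 5 largest negative values belonged to Rps4x (-0.80 ± 0.23, SE, adjusted p = 0.147 by limma), Rpl9, Rpl27a, Rpl41 and Rpl7, and the 5 largest positive ones to Rpl34 (0.61 ± 0.19, adjusted p = 0.178), Rpl37a, Rps27l, Rpl39 and Rpl7a. Rpl27a was above the background level of 3.43 at P2 alone, with means of 3.76 at P2, 3.21 at P7 and 3.40 at P14. Rpl41 was called when the prior variance of limma followed intensity (adjusted p = 0.0431).

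From P7 to P14 none of the 62 was called either, where 2.43% of all genes were, and 4 had an unadjusted p under 0.05 (6.45%, against 14.6% of all genes). They were 2 on each side, or 3.23%, where 5.07% of all genes were lower and 9.58% higher. Again 41 values were negative, with a median of -0.12, beside 0.015 over all genes, and the median was -0.062 without P7 replicate 2. The P14 arrays lay entirely below those of P7 for 17 genes and above for 3, or 27.4% and 4.84%, where 9.13% and 14.8% of all genes did so. Rps12 had the smallest adjusted p (-0.52 ± 0.16, adjusted p = 0.129 by limma). It was called under quantile normalization (0.0451) and with the intensity trend (0.0381). Among genes above background Rpl30, Rps18, Rps4x and Rps28 gave the other large negative values (-0.52 to -0.42). Rpl30 (-0.52 ± 0.26) lay near the background level of 3.43, with means of 3.45 at P2, 3.48 at P7 and 2.96 at P14. Rpl38, Rpl34, Rps13, Rpl26 and Rpl5 gave the largest positive ones above background, from 0.54 down to 0.24, and that of Rpl5 was -0.018 without P7 replicate 1.

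Over the whole span from P2 to P14, 10 of the 62 genes were called lower (16.1%) and 1 higher (1.61%), where 4.40% of all 22180 genes were called lower, 6.63% higher and 11.0% in either direction. Bright genes are called more often than dim ones. Among the 13234 genes above background 17.4% were called and 6.69% were lower, and among the 12051 genes whose mean at 1 age or more exceeded the median of all genes, 18.6% and 7.08%. The change was negative for 43 of the 62 (69.4%), and the median was -0.15, beside 0.013 over all genes. P14 arrays lay entirely below P2 arrays for 21 genes (33.9%) and entirely above for 2 (3.23%), where 12.6% and 16.2% of all genes did so. The count of genes called lower was 4 without P14 replicate 1 or 3 and 5 without P14 replicate 2, 5 with the mean of all probe sets of a gene, and 18 after cyclic loess normalization. Fewer of all genes were called lower too: 2.41%, 2.42% and 2.74% without P14 replicate 1, 2 and 3. With the mean of all probe sets that share was 4.33%. Cyclic loess moved the balance over all genes too: 39.9% of called genes were lower in the deposited scaling and 52.0% after it, where 5.94% of all genes were called lower. The median of the 62 genes was negative under every scaling, from -0.15 to -0.30.

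**Figure D1:**
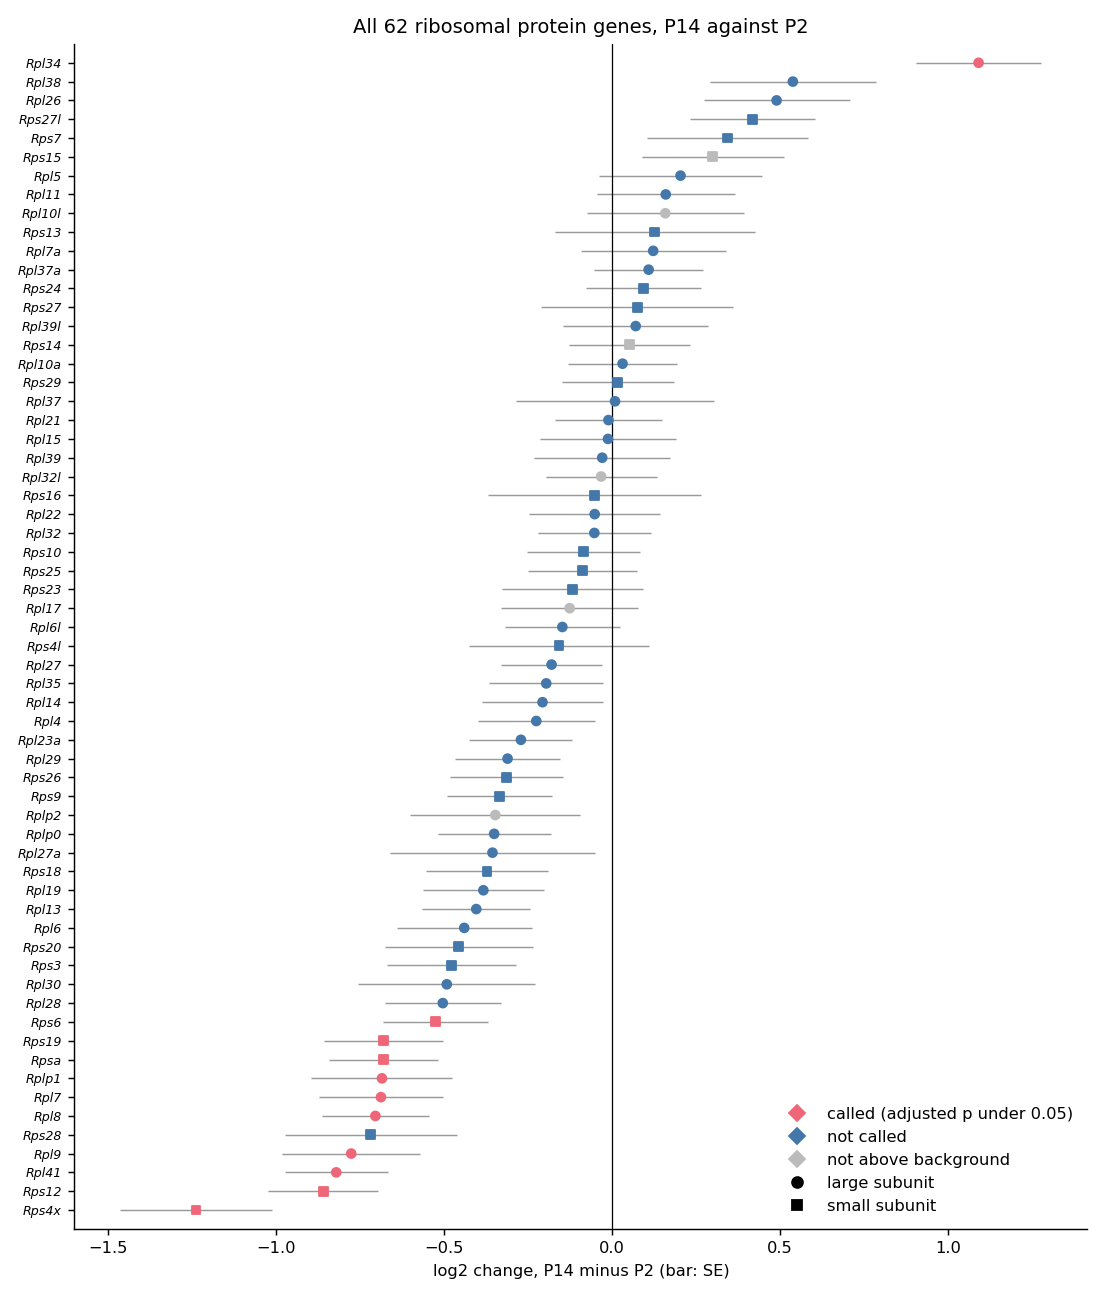
Log2 change from P2 to P14 for each of the 62 ribosomal protein genes, ordered by size, with bars for the SE of the limma fit. Circles are large and squares small subunit genes. Called genes (adjusted p under 0.05) are red, others blue, and genes not above background grey. Rps4x lies lowest at -1.24 and Rpl34 highest at 1.09, and 43 of the 62 points are below 0.

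Markers of other cells also differed between the ages. Shares called lower from P2 to P14 were 71.4% for dividing cells, 37.5% for neutrophil precursors, 50% for the erythroid and 16.7% for the fibroblast list. Over all genes that share was 4.40%. Of 7 measured genes of dividing cells (Mki67, Top2a, Cdk1, Mcm5, Tyms, Rrm2 and Birc5) 5 fell from P2 to P14 (Mki67, Top2a, Cdk1, Tyms and Birc5), and 5 to 7 as single arrays were left out. The sum of their linear intensities was 236 to 409 over the P2 arrays, 232 to 248 over those of P7 and 120 to 139 over those of P14. Of 8 neutrophil precursor genes 3 fell (Elane, Ltf and S100a8), with sums of 57.1 to 230 over the P2 arrays, 82.1 to 117 over those of P7 and 49.7 to 57.1 over those of P14, and the count ran from 1 to 7 as single arrays were left out. The erythroid list had 2 measured genes of 8, with 1 called lower, 0 to 2 as single arrays were left out, and sums of 20.7 to 135 at P2 and 17.9 to 23.3 at P14. Of 6 fibroblast genes 1 was called lower, 0 or 1 as single arrays were left out and 3 under cyclic loess or quantile normalization. For fibroblasts the sum was 3999 to 5931 at P2 and 3431 to 3994 at P14, for endothelial cells 443 to 702 and 717 to 795, and for macrophages 221 to 373 and 260 to 266, with no gene of the last 2 lists called, though 2 endothelial genes were called higher and 1 macrophage gene lower at most as single arrays were left out. Of 5 measured lymphocyte genes 2 were above background. In whole muscle, fewer cells of a kind and less of a transcript per cell cannot be told apart, and the part of these cells in the results on ribosomal protein genes was not tested.

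The gene with the largest fall was Rps4x, the X-linked gene of a small subunit protein. Its log2 intensities were 10.01, 9.16 and 8.99 at P2, 8.59, 8.62 and 8.56 at P7, and 8.18, 8.10 and 8.17 at P14. P2 replicate 1 stood well above the other 2 P2 arrays, and the 3 ages did not overlap. The change from P2 to P14 was -1.24 ± 0.23 (SE, n = 3 a group), 2.36-fold lower, with an adjusted p of 0.00267 by limma, and it was -0.92 without P2 replicate 1.

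Rps12, a protein of the beak of the small subunit, read 9.55, 9.69 and 9.53 at P2, 9.20, 9.40 and 9.14 at P7, and 8.56, 8.85 and 8.78 at P14. The ages did not overlap. Its change was -0.86 ± 0.16, 1.81-fold lower (limma adjusted p = 0.00362). Rpl41, the shortest of the ribosomal proteins, read 10.28, 10.14 and 10.26 at P2, 9.72, 9.63 and 9.77 at P7, and 9.40, 9.36 and 9.46 at P14. Its replicates lay close together at each age, and all 3 P7 arrays were between the P2 and P14 arrays. It was 1.77-fold lower at P14 (-0.82 ± 0.15, limma adjusted p = 0.0032). Rpl8, which lies near the site where peptide bonds are formed, read 6.96, 7.19 and 7.32 at P2, 6.74, 6.77 and 6.78 at P7, and 6.45, 6.49 and 6.42 at P14, again with no overlap between ages. Its change was -0.70 ± 0.16 (limma adjusted p = 0.0107).

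Rpsa, a small subunit protein also known as the laminin receptor, read 9.05, 9.37 and 9.17 at P2, 8.81, 8.88 and 8.72 at P7, and 8.48, 8.62 and 8.44 at P14. Here too each age lay below the one before. It was 1.60-fold lower at P14 (-0.68 ± 0.16, limma adjusted p = 0.014), and the call was lost without P14 replicate 1 (0.0596) or 3 (0.0649). Rps19, the gene most often mutated in Diamond-Blackfan anaemia, a failure of red cell production, read 7.13, 7.63 and 7.27 at P2, 6.69, 7.02 and 6.92 at P7, and 6.66, 6.70 and 6.63 at P14. Its P7 arrays overlapped the P14 arrays but not those of P2. The change was -0.68 ± 0.18 (limma adjusted p = 0.0225), and it was not called without P2 replicate 2 (0.0632) or without P14 replicate 1 (0.0770), 2 (0.0691) or 3 (0.0807).

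Rps6 is the small subunit protein that the S6 kinases phosphorylate when mTORC1 is active. Its arrays read 10.60, 10.45 and 10.46 at P2, 10.33, 10.35 and 10.16 at P7, and 9.96, 10.05 and 9.92 at P14. The ages did not overlap, but the change was the smallest of those called, -0.52 ± 0.16 (limma adjusted p = 0.0441), and leaving out any 1 of the 9 arrays ended the call, with adjusted p from 0.0502 to 0.146.

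The remaining calls among the large subunit genes were Rpl9, Rpl7 and Rplp1. Rpl9 read 6.46, 7.00 and 6.73 at P2, 5.80, 6.44 and 6.27 at P7, and 5.75, 6.04 and 6.07 at P14, so P14 lay below P2 and overlapped P7. Its change was -0.78 ± 0.21 (limma adjusted p = 0.0251), and the adjusted p was 0.0748 without P2 replicate 2 and 0.118, 0.0639 and 0.0564 without P14 replicate 1, 2 and 3. Rpl7 read 8.31, 8.59 and 8.27 at P2, 7.58, 8.15 and 7.94 at P7, and 7.61, 7.75 and 7.75 at P14, the P7 arrays overlapping those of P14 but not those of P2. It had a change of -0.69 ± 0.18 (limma adjusted p = 0.0261), and 0.0511 and 0.0694 without P2 replicate 1 and 2, and 0.104, 0.0741 and 0.0714 without P14 replicate 1, 2 and 3. Rplp1 belongs to the acidic stalk that recruits elongation factors to the large subunit, and it stood at the threshold (-0.68 ± 0.21, limma adjusted p = 0.0499). Its arrays read 9.05, 9.90 and 9.33 at P2, 9.04, 9.22 and 8.84 at P7, and 8.83, 8.76 and 8.64 at P14, P2 replicate 2 standing above the others. Leaving out any array except P2 replicate 1 ended the call, with adjusted p from 0.0566 to 0.159, and without P2 replicate 2 the change was -0.45.

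Rpl34, a large subunit protein, was the only one of the 62 called higher. It read 6.04, 5.52 and 5.61 at P2, 6.14, 6.33 and 6.53 at P7, and 6.91, 6.66 and 6.87 at P14. Every P7 array was above every P2 array, and every P14 array above every P7 array. The rise was 1.09 ± 0.19 on the log2 scale, 2.13-fold, with an adjusted p of 0.00172 by limma. Rpl34, Rps4x, Rps12, Rpl41 and Rpl8 kept their calls whichever 1 of the 9 arrays was left out, with adjusted p up to 0.0487.

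**Figure D2:**
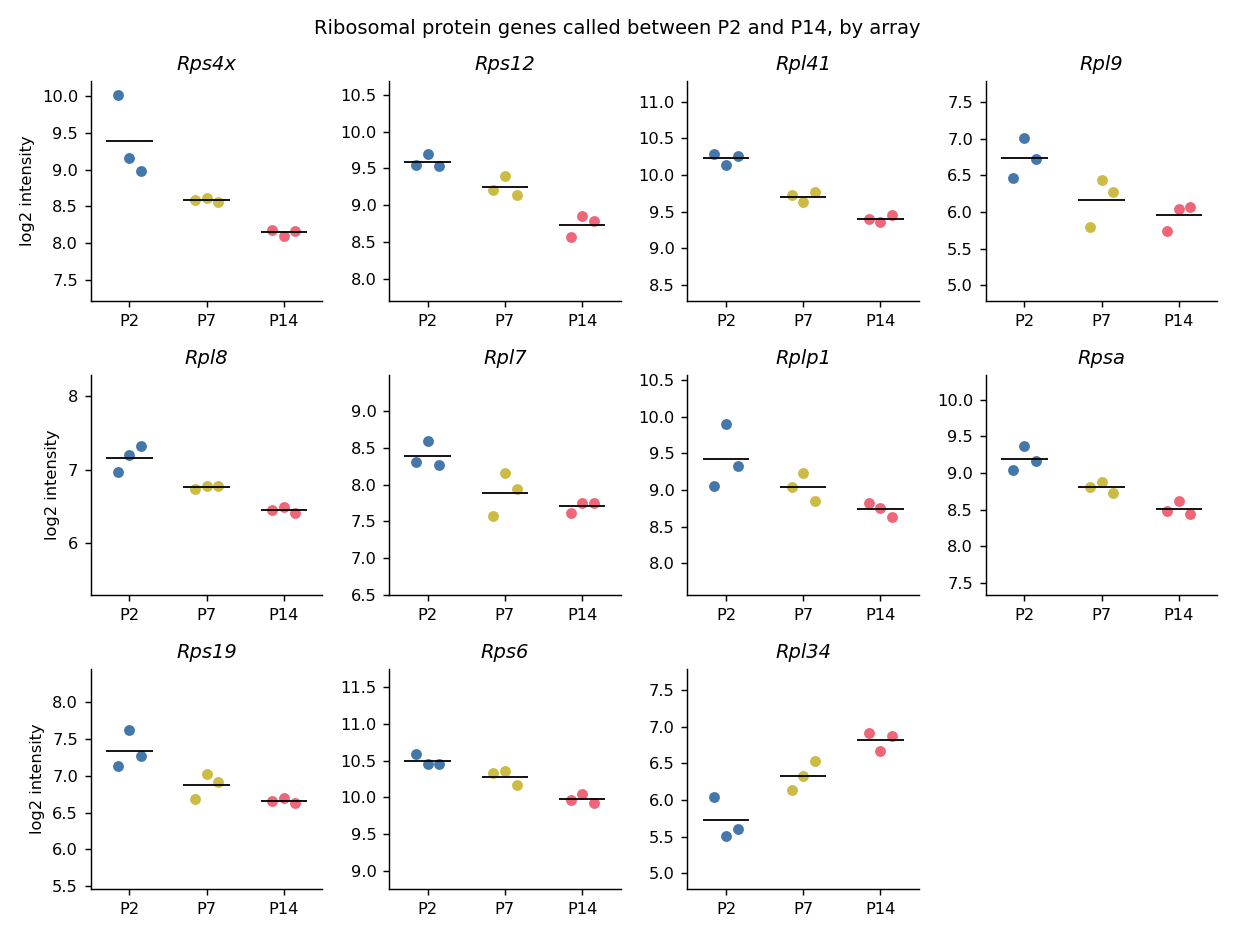
Log2 intensity on each of the 9 arrays for the 11 ribosomal protein genes called between P2 and P14, with 3 arrays an age as points and the age mean as a line. All panels span the same number of log2 units around their own middle. For 10 genes the P14 points lie below the P2 points, and for Rpl34 above them.

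Some genes had values as large without passing the test. Rps28, which lies at the exit of the messenger channel, read 7.55, 8.21 and 8.26 at P2, 7.31, 7.55 and 8.28 at P7, and 7.14, 7.18 and 7.55 at P14, and P2 replicate 1 and P14 replicate 3 nearly met. Its value of -0.72 ± 0.26 had an adjusted p of 0.0912 by limma, which became 0.0428 without P2 replicate 1, 0.0342 after cyclic loess and 0.0485 after quantile normalization. Rpl38, a large subunit protein known for its part in translating Hox messengers in the mouse embryo, read 6.01, 6.41 and 7.21 at P2, 6.40, 6.61 and 6.61 at P7, and 7.25, 7.10 and 6.89 at P14, with P2 replicate 3 level with P14. Its value was 0.54 ± 0.25 (limma adjusted p = 0.199), and without P2 replicate 3 it was 0.87 with an adjusted p of 0.0120. Rpl26 (0.49 ± 0.22), Rps27l (0.42 ± 0.19) and Rps7 (0.34 ± 0.24) had the next largest positive values, none of them called.

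A single F-test for any change over the 3 ages called 6 of the 62 (9.68%), where 8.24% of all genes were called, 13.1% of those above background and 14.1% of those above the median of all genes. The 6 were Rpl34, Rps4x, Rpl41, Rps12, Rpl8 and Rpsa, a share near or under the background. By age means, 27 of the 62 genes were lower at each step, 7 higher at each step, 14 had their lowest mean at P7 and 14 their highest. These counts include the 6 genes not above background, and the same patterns were not counted over all genes. Whether the second interval differed from the first was tested by a contrast of the later minus the earlier change. It called none of the 62, where 0.194% of all genes were called, none had an unadjusted p under 0.05, where 8.12% of all genes did, and the median was 0.013. With a median SE of 0.32 for this contrast, 35 of the 62 genes had a 95% interval within 1 log2 unit of 0. For the others the 95% interval reached a difference of 1 log2 unit or more at this number of arrays.

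The shift can be followed array by array by taking each gene's value minus its own mean over the 9 arrays. The median over the 62 genes was 0.087, 0.079 and 0.12 on the P2 arrays, -0.034, 0.094 and -0.011 on the P7 arrays, and -0.13, -0.10 and -0.14 on the P14 arrays. All 3 P14 arrays were lower than all others, and P7 replicate 2 lay with the P2 arrays. Over all genes the same medians ran from -0.029 to 0.017, and over the genes above background from -0.096 on P2 replicate 2 to 0.077 on P2 replicate 3, with the P14 arrays at 0.045 to 0.075.

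**Figure D3:**
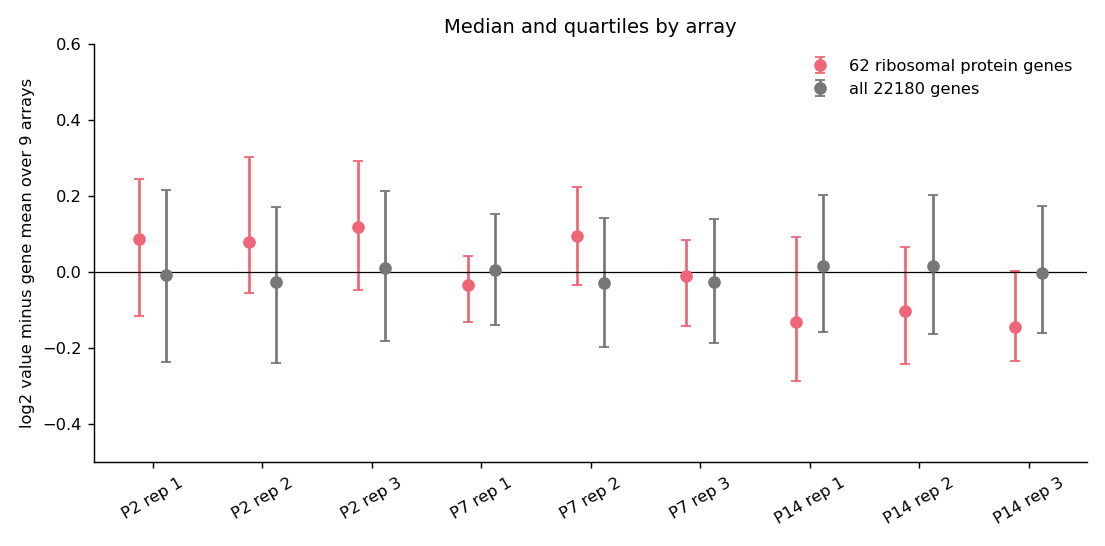
Median and quartiles, on each of the 9 arrays, of the log2 value minus the gene's mean over the arrays, for the 62 ribosomal protein genes (red) and all 22180 genes (grey). The red medians are -0.10 to -0.14 on the P14 arrays and 0.079 to 0.12 on the P2 arrays, and the grey ones lie between -0.029 and 0.017.

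Both subunits held called genes. From P2 to P14, 5 of 38 large subunit genes fell and 1 rose, with a median of -0.16, and 5 of 24 small subunit genes fell, with a median of -0.14. These are 13.2% lower and 2.63% higher for the large and 20.8% lower for the small subunit, against 4.40% lower and 6.63% higher over all genes. The difference between the subunits was not tested. Within the large subunit the acidic stalk gave Rplp1 as described, Rplp0 at -0.35 ± 0.17 (limma adjusted p = 0.219) and Rplp2, which was not above background. Rplp0 is the stalk base and is often used as a reference gene. It read 7.82, 7.97 and 7.81 at P2, 7.85, 7.69 and 7.40 at P7, and 7.44, 7.58 and 7.53 at P14, and its P14 arrays lay entirely below those of P2. Rpl5 and Rpl11, which carry the 5S ribosomal RNA and can bind Mdm2, stood at 0.20 ± 0.24 and 0.16 ± 0.21, neither called.

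The ring of proteins around the exit of the peptide tunnel (Rpl17, Rpl19, Rpl23a, Rpl26, Rpl35 and Rpl39) had no call among 6 genes, where 11.0% of all genes were called. The median of the ring was -0.16, with values from -0.38 for Rpl19 to 0.49 for Rpl26, and Rpl17 was not above background. Rps3 and Rps9, at the channel where the messenger enters, stood at -0.48 ± 0.19 and -0.34 ± 0.16, and neither was called. A list of 11 genes mutated in Diamond-Blackfan anaemia, which is not a full list, had 9 measured. Of these 1 fell, Rps19 (11.1%, against 4.40% of all genes), and their median was 0.093. Rpl5, Rpl11, Rpl15, Rpl26, Rps7, Rps10, Rps24 and Rps26 were not called.

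Relatives of a core gene were measured in a few cases, and their values are given without a comparison of levels. Rpl39 and Rpl39l, a copy known from testis, had values of -0.03 ± 0.20 and 0.07 ± 0.22, neither called. Rps27 and Rps27l, a copy known as a p53 target, stood at 0.07 ± 0.29 and 0.42 ± 0.19. Rps27l read 4.64, 4.52 and 4.99 at P2, 4.97, 5.18 and 4.71 at P7, and 5.03, 5.24 and 5.13 at P14, and its P14 arrays all lay above those of P2, though its adjusted p by limma was 0.181. Rps4l stood at -0.16 ± 0.27 beside the fall of Rps4x, and Rpl6l at -0.15 ± 0.17, neither called. Rpl10l, the germ cell copy of Rpl10, and Rpl32l were not above background.

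Several genes are read by more than 1 probe set, which gives a further reading of the same arrays. The 62 genes had 100 probe sets named for them alone, and 7 of these only repeated the values of another (5 for Rps12, 1 each for Rps19 and Rpl23a). Of the other 31 distinct probe sets 24, for 17 genes, were above background, and 16 of the 24 had the sign of the brightest one from P2 to P14 and 8 the opposite sign. In a limma fit over all 41345 probe sets, chosen after the data were seen, 5 of the 10 falls passed at the brightest probe set (Rps4x, Rps12, Rpl41, Rpl8 and Rpsa), and Rpl34 again rose. The share of all probe sets called in that fit is not given here, so these counts have no background beside them. The other probe sets add calls for Rpl41, Rps12 and Rpl29.

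The second and the third probe set of Rpl41 fell, at -0.81 ± 0.16 and -0.83 ± 0.16 (SE, limma adjusted p = 0.0227 and 0.0183 over all probe sets), beside the -0.82 of the brightest, while the other two had values of 0.56 ± 0.35 and 0.20 ± 0.18. The third of Rps12 fell by 0.82 ± 0.15 (adjusted p = 0.0159). Each of these calls was lost without any 1 of the P14 arrays, and those of the second Rpl41 probe set and of Rps12 also without P2 replicate 1, with adjusted p up to 0.0937. Rpl29, a large subunit protein, gave opposite readings. Its brightest probe set stood at -0.31 ± 0.16 and was not called, while the second rose by 1.40 ± 0.23 (adjusted p = 0.0104), from 4.22 ± 0.44 at P2 to 5.38 ± 0.17 at P7 and 5.62 ± 0.20 at P14. This rise had an adjusted p of 0.0515 without P14 replicate 1. Rps19 and Rplp1 each had a dimmer probe set above background with the opposite sign to their falls, at 0.37 ± 0.22 and 0.11 ± 0.45, neither called. With all probe sets of a gene averaged, the calls of Rpl41, Rpl7, Rpl9, Rplp1 and Rps19 were lost (adjusted p up to 0.59).

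**Figure D4:**
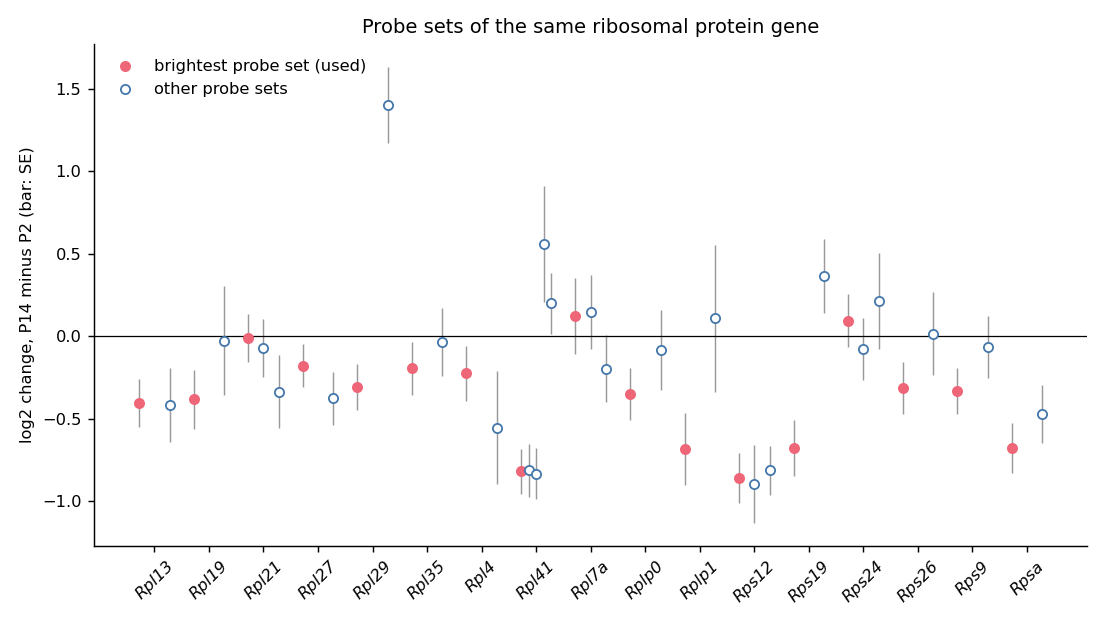
Log2 change from P2 to P14 at each distinct probe set above background, for ribosomal protein genes with more than 1, with bars for the SE of a limma fit over all 41345 probe sets. Red points are the brightest probe set of a gene and open points the others. The first 3 of Rpl41 lie together near -0.82, and the second of Rpl29 stands at 1.40 against -0.31 for its first.

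Ribosomal proteins that the symbol rule leaves out were measured for 6 of 10 genes. From P2 to P14, 1 was called lower and 1 higher (16.7% each, against 4.40% and 6.63% of all genes). Rps3a1, a small subunit protein, was called lower (-0.80 ± 0.17, limma adjusted p = 0.00693), while Rpl3, Fau, Rpl22l1 and Rpl7l1 were not called. Rpl3l, the striated muscle relative of Rpl3, rose 4.21-fold from 5.58 ± 1.01 at P2 to 7.65 ± 0.08 at P14 (SD, n = 3, limma adjusted p = 0.00155), and the value of Rpl3 was -0.48 ± 0.27.

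Of 63 measured genes for ribosome assembly, 4 rose and 1 fell from P2 to P14 (6.35% and 1.59%, against 6.63% and 4.40% of all genes), with a median of 0.25. Rcl1, needed to make 18S ribosomal RNA, rose by 1.12 ± 0.22 (limma adjusted p = 0.00388), Rrp12, which helps to export subunits, by 0.89 ± 0.19 (0.008), Rpf2, which brings in the 5S RNA, by 0.67 ± 0.18 (0.0282), and Nop10, a part of the pseudouridine-forming particles, by 0.63 ± 0.19 (0.0426). Npm1, the abundant nucleolar chaperone nucleophosmin, went the other way and fell 2.24-fold (-1.16 ± 0.18, limma adjusted p = 0.000652). It read 8.27, 8.19 and 7.78 at P2, 7.31, 7.39 and 7.34 at P7, and 6.82, 7.08 and 6.86 at P14, with no overlap between ages. Npm1 and Rcl1 kept their calls with any 1 array left out. Rrp12 reached an adjusted p of 0.05 without P14 replicate 2, Rpf2 lost its call without P2 replicate 1 or 2 or any P14 array (up to 0.109), and Nop10 without any array except P2 replicate 3 (up to 0.164) and after cyclic loess (0.0882) or quantile normalization (0.0711). Under cyclic loess the list had 3 rises and 4 falls, with a median of 0.18.

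Of 15 genes of the RNA polymerase I machinery, which transcribes ribosomal RNA, 1 fell from P2 to P14 (6.67%, against 4.40% of all genes), and the median was 0.17. The gene called was Taf1d (-0.74 ± 0.20, limma adjusted p = 0.0261). Its call was lost without P2 replicate 1 or 2 or any P14 array (up to 0.11), and with the mean of its probe sets the value was -0.24 (0.393). Among 39 measured translation factors Eef1a1, the elongation factor that brings aminoacyl-tRNA to the ribosome, fell 2.11-fold (-1.08 ± 0.16, limma adjusted p = 0.000589). It read 11.54, 11.45 and 11.45 at P2, 11.04, 11.04 and 10.85 at P7, and 10.34, 10.30 and 10.56 at P14, each age below the one before, and the call held with any 1 array left out. Of the 39 factors 2.56% fell and none rose, against 4.40% and 6.63% of all genes. The list's median was 0.047, which turned to -0.10 under cyclic loess and -0.090 under quantile normalization.

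Among 25 measured genes of growth signalling to the ribosome, 3 rose and 1 fell from P2 to P14 (12% and 4%, against 6.63% and 4.40% of all genes). Ddit4, an inhibitor of mTORC1, rose by 0.79 ± 0.21 (limma adjusted p = 0.0242), Myc, which drives ribosome genes, by 0.69 ± 0.19 (0.0264) and its antagonist Mxi1 by 0.62 ± 0.18 (0.0391). Sesn1, another inhibitor of mTORC1, had a change of -0.83 ± 0.20 (0.0144). None of these kept its call with every array left out in turn: Ddit4 lost it without the first or the second P2 array or the first or the third P14 array (up to 0.12), Myc without the third P2 or the first or the third P14 array (up to 0.124), Mxi1 without the first or the second P2 array or any P14 array (up to 0.149), and Sesn1 without the first P2 or the second P14 array (up to 0.0884). Myc and Mxi1 were also not called under cyclic loess (0.059 and 0.0539) or quantile normalization (0.07 and 0.0603), and Mxi1 also not with the mean of its probe sets (0.234). From P7 to P14 Rrp12 and Mdm2 rose (0.81 ± 0.19 and 0.84 ± 0.16, limma adjusted p = 0.0393 and 0.0138), with adjusted p up to 0.19 and 0.0745 when a P7 or P14 array was left out, which ended each call in 5 of the 9 fits. Both calls were also lost under cyclic loess (0.0652 each) and quantile normalization (0.074 and 0.0779). No gene of these lists was called from P2 to P7.

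**Figure D5:**
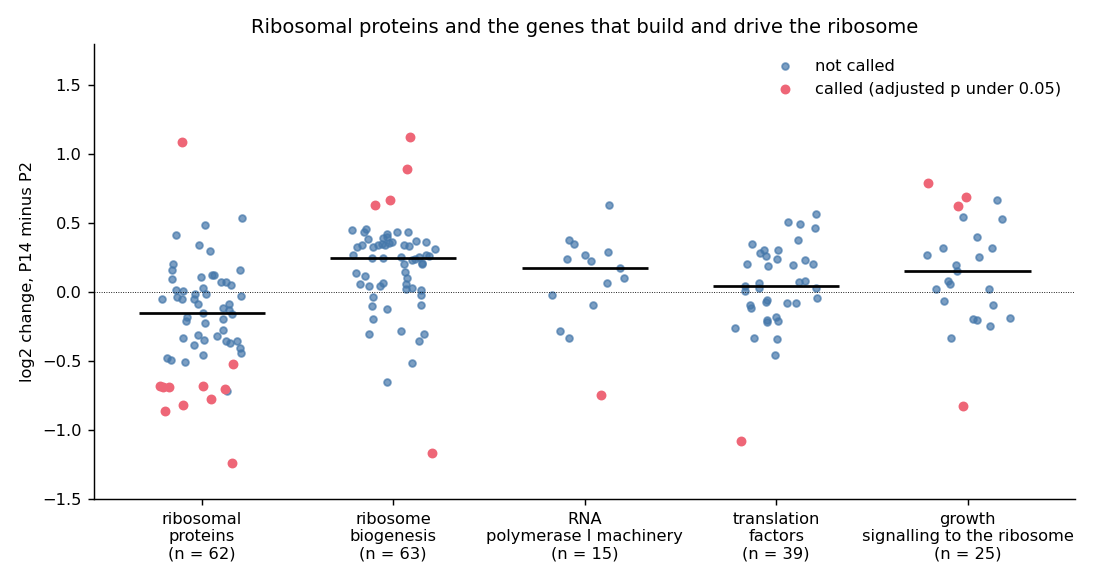
Log2 change from P2 to P14 of each gene (points) and the list median (line) for the 62 ribosomal protein genes and for 63 ribosome assembly, 15 RNA polymerase I, 39 translation factor and 25 growth signalling genes, with sideways scatter for display. Red points were called at a limma adjusted p under 0.05. The medians are -0.15, 0.25, 0.17, 0.047 and 0.15.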

How the data were processed

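Total RNA of hindlimb muscle was extracted with Trizol and hybridised as biotinylated cRNA, per the labels' protocols. The authors deposited 1 log2 intensity per probe set and array; RMA and Partek are named, without settings, per the submitters' processing notes, and the array model is not stated in the sources used here. RMA scales the arrays to each other, so a change shared by most transcripts would not show.

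Of 41345 probe sets, 23521 carried 1 gene symbol in GEO's platform annotation, which gave 22180 genes; probe sets with several symbols (1814) or unlisted (16010) were left out. limma 3.58.1 (R 4.3.3) fitted 1 mean per age on all 9 arrays, with empirical Bayes moderation, and p-values were adjusted by Benjamini-Hochberg over all genes, with calls under 0.05. The fit was checked on simulated data. Alternatives were averaged probe sets, a filter on dim genes, array centring, cyclic loess, quantile normalization, a variance trend, a replicate block, each array left out and, chosen after seeing the data, a fit over all probe sets and the same alternatives for the genes of other lists. Genes named are the members called, the 5 largest values each way per pair of ages above background, the stalk genes, copies ending in l or x, members below background, members whose probe sets disagree, and up to 3 called genes per other list. Where a list had 5 or fewer calls all are named, a choice made after their values were seen. The members and lists were chosen with earlier results of these data known. Gene names were matched to RefSeq GRCm38.p6 for 21994 genes.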

Additional observations from a re-analysis of the deposited data

How the results depend on the processing

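Of 221 alternatives for the counts and medians, 192 were counted as unchanged, and the others moved in size or in sign. For the 36 results on named genes, 559 of 611 alternatives kept direction and side of the threshold. With a variance trend (limma-trend) 1 gene was called lower from P2 to P7 and 1 from P7 to P14, and quantile normalization also called 1 lower from P7 to P14. From P7 to P14 the median became -0.256 under cyclic loess and -0.261 under quantile normalization, and -0.159 to -0.0618 as each array was left out. From P2 to P14 the count lower was 5 with averaged probe sets, 18 under cyclic loess, 5 in the fit over all probe sets and 4 to 9 with an array left out. Over all genes the share called lower was 4.33% with averaged probe sets, 5.94% under cyclic loess and 2.41% to 5.64% with an array left out. That share is not given for the fit over all probe sets. The count higher was 2 with averaged probe sets and 1 to 2 with an array left out. That median was -0.207 among brighter genes, -0.294 under cyclic loess, -0.301 under quantile normalization and -0.201 to -0.137 with an array left out. The median difference between the intervals was -0.0670 under cyclic loess, -0.0571 under quantile normalization and -0.0546 to 0.0860 with an array left out. The F-test called 12 under cyclic loess, 11 under quantile normalization, 10 with the trend, 3 over all probe sets and 3 to 6 with an array left out. The share of all genes called by the F-test in these settings is not given here. Rpl5 from P7 to P14 turned from 0.24 to -0.0178 without P7 replicate 1, within -0.0178 to 0.386 over the arrays left out. The cause was not tested. The replicate block again gave 10 lower and 1 higher from P2 to P14, and 2320 genes in all against 2447, with Rps6 lost (limma adjusted p = 0.0627), Rps28 gained (0.0317) and, among the other lists, Mxi1 lost (0.0612) and Rrp12 lost from P7 to P14 (0.0608). The fit over all probe sets also ended the calls of Rpf2, Nop10, Sesn1, Ddit4, Myc, Mxi1 and Taf1d (0.0539 to 0.0987) and that of Rrp12 from P7 to P14 (0.139). Replicate numbers did not pair the samples, with correlations of deviations from -0.0286 to 0.0565. With 3 arrays an age, 48 of the 62 genes had a 95% interval within 1 log2 unit of 0 from P2 to P14.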
